A study of Mus musculus with 24 samples.

Results

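Fibrinogen chains, coagulation factors and plasminogen were followed in F4/80+ liver cells of mice. The 9 genes Fga, Fgb, Fgg, F2, F3, F5, F7, F10 and Plg were taken by symbol from the array's probe annotation, out of 22206 transcript clusters tested, and each stood on exactly 1 cluster. The RNA of each preparation was hybridised to a Clariom S mouse array, 24 in all, and the preparations form 8 groups of 3. LR+SE mice (PH+SE in the labels) had lost the spleen 7 days before removal of 70% of the liver, and were sampled 24 h, 3 days and 7 days after the resection. LR mice (PH in the labels) were resected with the spleen in place and sampled at the same times. SE mice had lost only the spleen and kept the whole liver. The last group is labelled intact, while the methods speak of sham-operated controls, and it is not settled which holds. The methods give male C57BL/6 mice throughout. Liver was digested with collagenase, hepatocytes were spun out at low speed, and the remaining cells were enriched on a density gradient and with F4/80 beads. Each preparation pooled several mice. The animals listed are too few for 3 separate pools in the SE and intact groups. Those of the LR and the LR+SE series are too few for 3 separate pools at every time. Arrays of any group may therefore share mice, and all p-values rest on the spread among the preparations alone.

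Fibrinogen is the soluble plasma protein from which clots are made, and it is built in hepatocytes from the alpha, beta and gamma chains encoded by Fga, Fgb and Fgg. Clotting starts when tissue factor (F3), a membrane protein of cells outside the blood, meets factor VII (F7). Their complex activates factor X (F10), which with its cofactor factor V (F5) turns prothrombin (F2) into thrombin, and thrombin cuts fibrinogen to fibrin. Plasminogen (Plg) is the precursor of plasmin, which dissolves fibrin again. In the acute phase response interleukin 6 acts through STAT3 on hepatocytes and raises transcription of the fibrinogen genes. Tissue factor aside, these proteins come mainly from hepatocytes. Megakaryocytes also make factor V, and macrophages can make some of the clotting factors.

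Values are the deposited log2 signals, which reached 19.93. A background level of 3.69 was set from 1080 odorant receptor clusters, whose means lay below it in 95% of cases, and 54.8% to 59.6% of clusters lay above it on each array. Adgre1, which encodes F4/80, had group means of 14.61 to 16.3, and Clec4f, a Kupffer cell lectin, 17.43 to 19.43. Hepatocyte transcripts were present in every group. Of 20 hepatocyte genes 18 were measured, and 17 or 18 of these lay above background in each group. Their mean level per array was 8.38 to 9.39, 10.67 to 12.96 and 6.76 to 8.36 at 24 h, 3 days and 7 days of LR+SE, and 9.24 to 10.32, 8.24 to 9.58 and 6.47 to 8.01 at the same times of LR. It was 6.16 to 7.52 in SE and 8.07 to 9.78 in intact preparations. Array 2 of LR+SE 3 days stood apart, with a mean correlation of 0.842 to its group against a median of 0.955 within groups. Its marker means were the highest of its group for hepatocytes (12.96, against 10.67 and 10.69), monocytes (13.15, against 10.61 and 8.94) and neutrophils (11.56, against 9.33 and 6.64). For liver macrophages its mean was the lowest (15.93, against 17.34 and 17.32). The part of these markers in its values was not tested. Where leaving this array out ended a call of the 9 genes or moved a difference printed here by over 1.5 times, the value without it is given too. Although all mice are given as male, the mean signal of Y-linked genes was only 2.60 to 3.08 on 5 arrays, namely the 3 intact arrays, replicate 1 of LR+SE 3 days and replicate 2 of LR 7 days, and 6.75 to 8.78 on the other 19. In pooled preparations fewer cells of a type and less RNA per cell cannot be told apart.

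The fibrinogen chains and factor X rose 24 h after resection with the spleen in place. After splenectomy the fibrinogen chains and factor V rose at 24 h, and 8 of the 9 genes were higher at 3 days. Genes are counted as passing where limma gave an adjusted p under 0.05, with the Benjamini-Hochberg adjustment over all clusters of the comparison. The share of all clusters at an unadjusted p under 0.05 was not counted. Counts of genes at that level therefore have no rate over all clusters beside them. Against intact, 4 of 9 genes passed at LR 24 h, all higher, where 7.59% of all clusters passed and 3.47% did so upwards. The median difference of the 9 genes was 1.22, against 0.01 over all clusters. None passed at LR 3 days (2.36% of clusters, and 2 of the 9 genes at an unadjusted p under 0.05) or LR 7 days (1.00% of clusters, 1 gene unadjusted). At LR 3 days Fga, F10 and F7 lay above intact without overlap (11.1% of clusters), by 2.84, 1.04 and 0.84, and at LR 7 days Plg lay below it (6.24% of clusters), by -2.39. Against SE, 4 of 9 passed at LR+SE 24 h, all higher (1.33% of clusters, 0.955% upwards), with a median of 1.96 against -0.02. At LR+SE 3 days 8 of 9 passed, all higher (6.92%, 5.12% upwards), with a median of 3.60 against -0.04. None passed at LR+SE 7 days (1.52%, and 1 gene unadjusted), where Fgb, Fgg and Plg lay above SE without overlap (10.1% of clusters), by 2.01, 2.01 and 1.02. SE itself passed against intact for none of the 9 (0.554% of clusters, and 2 genes unadjusted), with a median of -1.07 against 0.01. F5, F10 and Plg lay below intact without overlap (9.11% of clusters). The hepatocyte list did so too, with 5 of 18 genes lower and a median of -2.83, and its part in these differences was not tested. The LR groups share the intact arrays, and the LR+SE groups share the SE arrays.

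**Figure D1:**
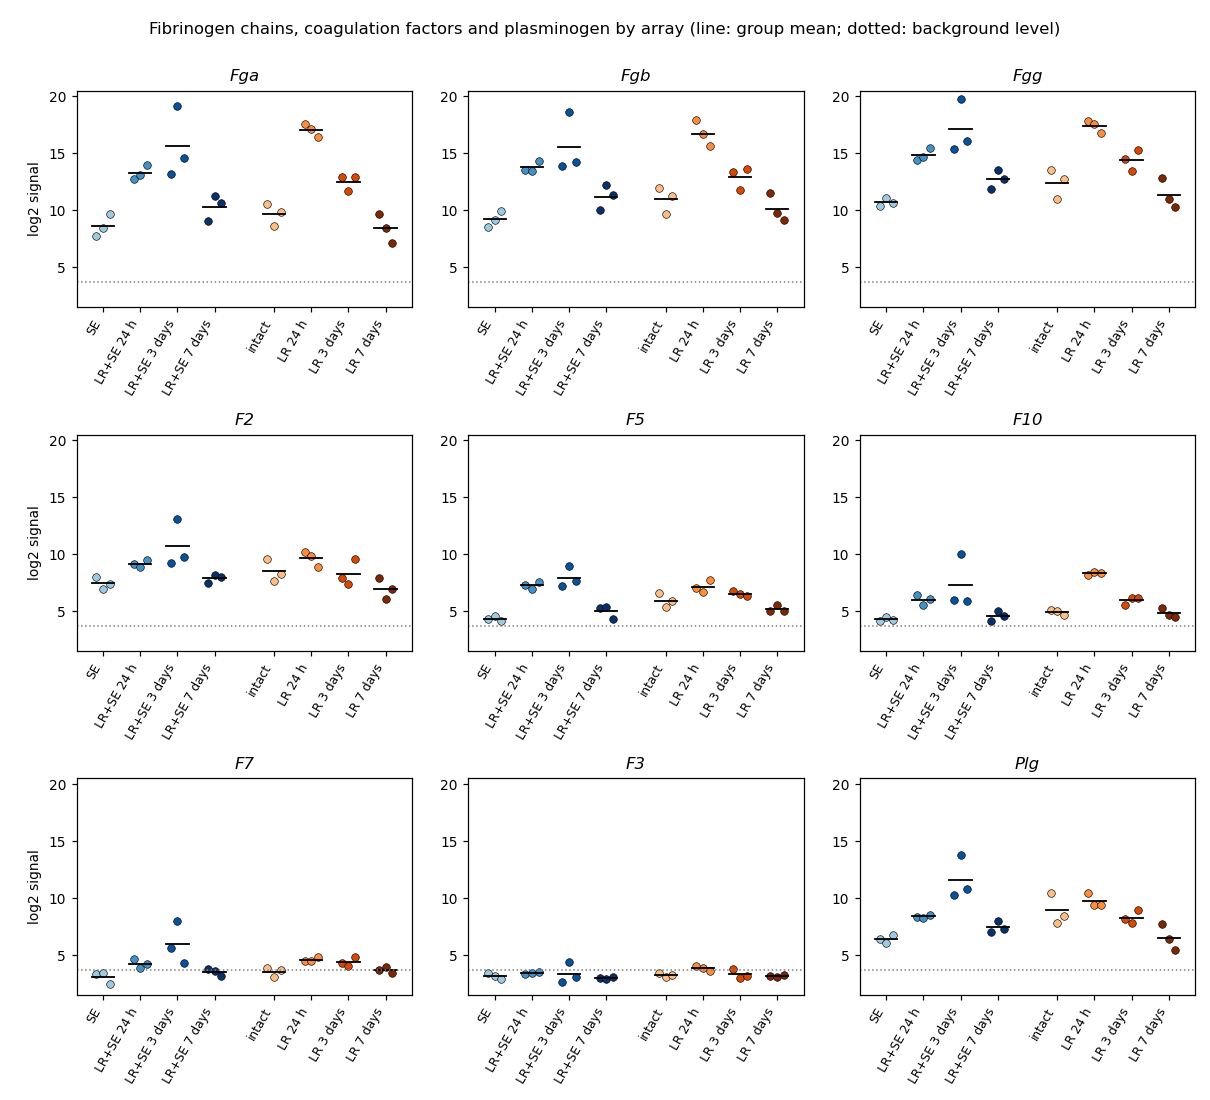
Log2 signal of the 9 genes on each of the 24 arrays, with LR+SE and its SE baseline left and LR and its intact baseline right. Points are arrays, short lines group means and the dotted line the background level of 3.69. Fga, Fgb and Fgg stand at 15.6 to 17.89 on the LR 24 h arrays, above every intact array, and array 2 of LR+SE 3 days is the highest of its group in all 9 panels.

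The fibrinogen chains lie side by side in the genome, in the order Fgg, Fga, Fgb within 42.1 kb of chromosome 3 (83007724 to 83049863, GRCm38.p6). The 250 bases before each RefSeq start are shown for these genes and for F10, the genes that passed together at LR 24 h, 5′ to 3′ on the coding strand. Capitals mark CTGGGA, the core of an interleukin 6 response element, TTCNNNGAA, a palindromic STAT motif, and GTTAAT, an HNF1 site core, each searched on both strands. The motifs were chosen with the expression results known.
Fga (chr3:83025903-83026152, plus strand): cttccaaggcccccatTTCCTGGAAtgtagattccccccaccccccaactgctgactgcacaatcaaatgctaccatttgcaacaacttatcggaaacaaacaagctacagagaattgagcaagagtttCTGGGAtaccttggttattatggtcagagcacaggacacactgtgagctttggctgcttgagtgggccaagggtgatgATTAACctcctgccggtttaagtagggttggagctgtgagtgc
Fgb (chr3:83049864-83050113, minus strand): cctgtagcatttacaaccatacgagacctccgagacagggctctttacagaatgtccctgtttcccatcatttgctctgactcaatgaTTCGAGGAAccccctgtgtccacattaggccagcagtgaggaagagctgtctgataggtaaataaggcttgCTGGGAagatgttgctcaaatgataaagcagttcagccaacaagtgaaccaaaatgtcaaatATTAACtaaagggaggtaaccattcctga
Fgg (chr3:83007474-83007723, plus strand): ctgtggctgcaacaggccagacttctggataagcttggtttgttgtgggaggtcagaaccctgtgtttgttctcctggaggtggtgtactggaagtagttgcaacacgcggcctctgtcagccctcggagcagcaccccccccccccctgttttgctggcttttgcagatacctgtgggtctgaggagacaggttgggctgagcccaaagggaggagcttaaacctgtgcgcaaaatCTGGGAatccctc
F10 (chr8:13037058-13037307, plus strand): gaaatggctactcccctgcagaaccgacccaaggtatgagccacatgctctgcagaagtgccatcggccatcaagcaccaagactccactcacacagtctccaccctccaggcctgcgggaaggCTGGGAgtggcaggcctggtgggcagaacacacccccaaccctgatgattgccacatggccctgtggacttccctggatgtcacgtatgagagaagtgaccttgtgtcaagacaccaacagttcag

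CTGGGA was found on the coding strand of all 4 windows, starting 121 bases before the start in Fga, 91 in Fgb, 13 in Fgg and 126 in F10. The windows of F2, F3 and F5 did not hold it, and that of F7, which begins away from the start in the RefSeq gene table, is not counted. It was found in 27% of 32851 such windows from RefSeq. TTCNNNGAA was present in Fga (from base 234) and Fgb (from base 162), and in 7.02% of all windows. GTTAAT was present on the opposite strand of the same genes, from bases 43 and 29, and in 6.43% of all windows. The motifs did not overlap. Of the 9 genes 8 had a RefSeq window to search, and Plg, which had none, is named only. A match describes the letters only.

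Fga, the alpha chain, stood at 17.55, 17.09 and 16.44 on the LR 24 h arrays, against 10.51, 8.63 and 9.84 on the intact arrays. All LR 24 h arrays lay above the highest intact array. The difference was 7.37 ± 1.02 (standard error, n = 3 arrays per group, adjusted p = 1.30e-04), or 165-fold on the deposited scale. Fgb, the beta chain, was at 17.89, 16.66 and 15.6 on LR 24 h arrays, against 11.97, 9.7 and 11.25 on intact arrays, and rose by 5.74 ± 0.96 (adjusted p = 6.81e-04). Fgg, the gamma chain, was at 17.8, 17.6 and 16.81, against 13.51, 11.02 and 12.77, and rose by 4.97 ± 0.87 (adjusted p = 9.53e-04). All LR 24 h arrays lay above all intact arrays for each chain. This held for 7 of the 9 genes, and for 12.3% of all clusters. Beside this rise the mean of the hepatocyte list overlapped between LR 24 h and intact, with 3 of 18 genes higher, 3 lower and a median difference of 0.82. Albumin (Alb) stood at 19.76 to 19.83 on LR 24 h and 19.67 to 19.84 on intact arrays. These values lie close to the highest of the scale, where a rise of Alb may not show. The summed level of the list, which Alb dominates in both groups, overlapped (19.84 to 19.97 on LR 24 h and 19.79 to 19.89 on intact arrays, log2). This sum was 20.04 to 21.0 on LR+SE 3 days and 14.83 to 17.67 on SE arrays. The part of hepatocyte transcripts in the rise was not tested. The mean of 12 liver macrophage markers was 15.68 to 17.04 on LR 24 h and 17.08 to 17.67 on intact arrays, lower without overlap. Of these markers 2 were lower and 0 higher (median -0.77), and their part was not tested either. The 3 intact arrays lacked Y-linked signal and the LR 24 h arrays had it. With that signal as a block, estimated through the other 2 arrays without it, none of the 9 genes passed. The chains then differed by 5.55 (Fga, adjusted p = 0.0544), 4.20 (Fgb, adjusted p = 0.148) and 3.40 (Fgg, adjusted p = 0.199).

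With the spleen in place the chains then declined. At LR 3 days Fga was at 12.92, 11.69 and 12.89, Fgb at 13.33, 11.79 and 13.62 and Fgg at 14.51, 13.46 and 15.25. Each was lower than at LR 24 h without overlap, with differences of -4.53 ± 1.02 (Fga, adjusted p = 0.0113), -3.81 ± 0.96 (Fgb, adjusted p = 0.0236) and -3.00 ± 0.87 (Fgg, adjusted p = 0.0477). Between these times 4 of 9 genes passed, all lower (5.18% of clusters, 2.05% downwards). Leaving out any 1 of the 6 arrays ended at least 2 of the 4 calls, and without replicate 2 of LR 3 days none remained. At LR 7 days Fga was at 9.69, 8.45 and 7.13, Fgb at 11.51, 9.75 and 9.14 and Fgg at 12.85, 10.96 and 10.26, all below every LR 3 days array of the same gene. Fga alone passed (1.57% of clusters, 0.959% downwards), with a difference of -4.08 ± 1.02 (adjusted p = 0.0473), and that call was lost without any 1 of the 6 arrays (adjusted p up to 0.174). Fgb differed by -2.77 ± 0.96 and Fgg by -3.05 ± 0.87, and 7 of the 9 genes lay lower without overlap (8.59% of clusters). The hepatocyte list did not overlap either, at 6.47 to 8.01 in LR 7 days and 8.24 to 9.58 in LR 3 days preparations, with 1 of 18 genes lower, 10 at an unadjusted p under 0.05 and a median of -1.81. Its part in the decline was not tested. At LR 7 days all 3 chains overlapped with intact. Over the 8 groups the chains had the same highest 4, with mean Fga levels of 17.03 at LR 24 h, 15.64 at LR+SE 3 days, 13.27 at LR+SE 24 h and 12.50 at LR 3 days. LR+SE 7 days, intact, LR 7 days and SE followed in Fgb and Fgg, and in Fga SE stood before LR 7 days. Neighbours in this order overlapped, except LR 3 days and LR+SE 7 days in Fga.

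After splenectomy the chains rose at 24 h as well. Fga stood at 12.78, 13.09 and 13.94 on LR+SE 24 h arrays, against 7.72, 8.44 and 9.63 on SE arrays, Fgb at 13.52, 13.45 and 14.29 against 8.51, 9.13 and 9.93, and Fgg at 14.38, 14.7 and 15.49 against 10.35, 11.09 and 10.67. No array overlapped, as in 8 of the 9 genes and, upwards, 8.75% of clusters. The chains rose by 4.67 ± 1.02 (Fga, adjusted p = 0.0231), 4.56 ± 0.96 (Fgb, adjusted p = 0.0179) and 4.16 ± 0.87 (Fgg, adjusted p = 0.0165). All 3 calls were lost without replicate 1 of SE or replicate 2 or 3 of LR+SE 24 h, and that of Fgg also without replicate 3 of SE (adjusted p up to 0.117). Here the hepatocyte list was higher on every LR+SE 24 h array than on any SE array, with 1 of 18 genes passing and a median difference of 2.01. Its part in the rise was not tested.

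At the same time after resection, LR+SE 24 h arrays lay below LR 24 h arrays for each chain without overlap. Fga, at 12.78, 13.09 and 13.94 in LR+SE 24 h and 17.55, 17.09 and 16.44 in LR 24 h, fell by 3.76 ± 1.02 (adjusted p = 0.0463). It was the only one of the 9 genes to pass (3.26% of clusters, 1.22% downwards), and the call was lost without any 1 of the 6 arrays (adjusted p 0.0613 to 0.162). Fgb differed by -2.97 ± 0.96 (adjusted p = 0.11) and Fgg by -2.55 ± 0.87 (adjusted p = 0.13). Of the 9 genes 6 did not overlap, all lower, as did 10.5% of all clusters. The hepatocyte list was 8.38 to 9.39 in LR+SE 24 h and 9.24 to 10.32 in LR 24 h preparations. The responses to resection, LR+SE minus SE set against LR minus intact, differed at 24 h by -2.69 ± 1.44 for Fga, -1.18 ± 1.36 for Fgb and -0.81 ± 1.22 for Fgg, and none of the 9 genes passed (0.684% of clusters, and 1 gene at an unadjusted p under 0.05).

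At 3 days the LR+SE arrays were above the LR arrays for each chain, and the differences did not pass. Fga was at 13.2, 19.13 and 14.6 on LR+SE 3 days arrays, against 12.92, 11.69 and 12.89 on LR 3 days arrays, Fgb at 13.91, 18.6 and 14.25 against 13.33, 11.79 and 13.62, and Fgg at 15.41, 19.77 and 16.11 against 14.51, 13.46 and 15.25. All LR+SE 3 days arrays were the higher ones, and replicate 2 lay near the top of the scale. The differences of 3.14 ± 1.02, 2.68 ± 0.96 and 2.69 ± 0.87 did not pass (adjusted p = 0.322, 0.431 and 0.314), and without replicate 2 they were 1.40, 1.17 and 1.35. None of the 9 genes passed in this comparison (0.126% of clusters). An unadjusted p under 0.05 was found for 7, a level at which all clusters were not counted. No overlap was found for 5, all higher (7.49% of clusters). The hepatocyte list did not overlap either, at 10.67 to 12.96 in LR+SE 3 days and 8.24 to 9.58 in LR 3 days preparations, with a median difference of 2.75, none of 18 genes passing in limma and 15 at an unadjusted p under 0.05. Its part in these differences was not tested. Against SE the chains were higher by 7.05 ± 1.02 (Fga), 6.40 ± 0.96 (Fgb) and 6.39 ± 0.87 (Fgg, adjusted p = 1.43e-04), and by 5.30, 4.89 and 5.06 without replicate 2, with all 3 still passing. In 8 of the 9 genes these groups did not overlap, against 13.1% of all clusters upwards. In that comparison 15 of 18 hepatocyte genes were higher too.

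After splenectomy too the chains declined by 7 days. At LR+SE 7 days Fga was at 9.04, 11.28 and 10.6, Fgb at 10.04, 12.19 and 11.36 and Fgg at 11.88, 13.5 and 12.74. Against LR+SE 3 days 7 of 9 genes were lower (1.36% of clusters, 1.23% downwards), with differences of -5.34 ± 1.02 in Fga (adjusted p = 0.00709), -4.39 ± 0.96 in Fgb and -4.39 ± 0.87 in Fgg, and 8 did not overlap (7.05% of clusters). Without replicate 2 of LR+SE 3 days 4 of 9 passed, and Fga differed by -3.60 (adjusted p = 0.0279), Fgb by -2.89 (adjusted p = 0.154) and Fgg by -3.05 (adjusted p = 0.0601). Without replicate 1 of LR+SE 7 days 2 passed, and without replicate 3 of it 4 did. In the hepatocyte list 14 of 18 genes were lower, with a median of -4.22. Against LR 7 days none of the 9 genes passed (1.64% of clusters, and none at an unadjusted p under 0.05 in limma). The chains differed from LR 7 days by 1.88 ± 1.02 (Fga), 1.06 ± 0.96 (Fgb) and 1.35 ± 0.87 (Fgg), with overlap.

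**Figure D2:**
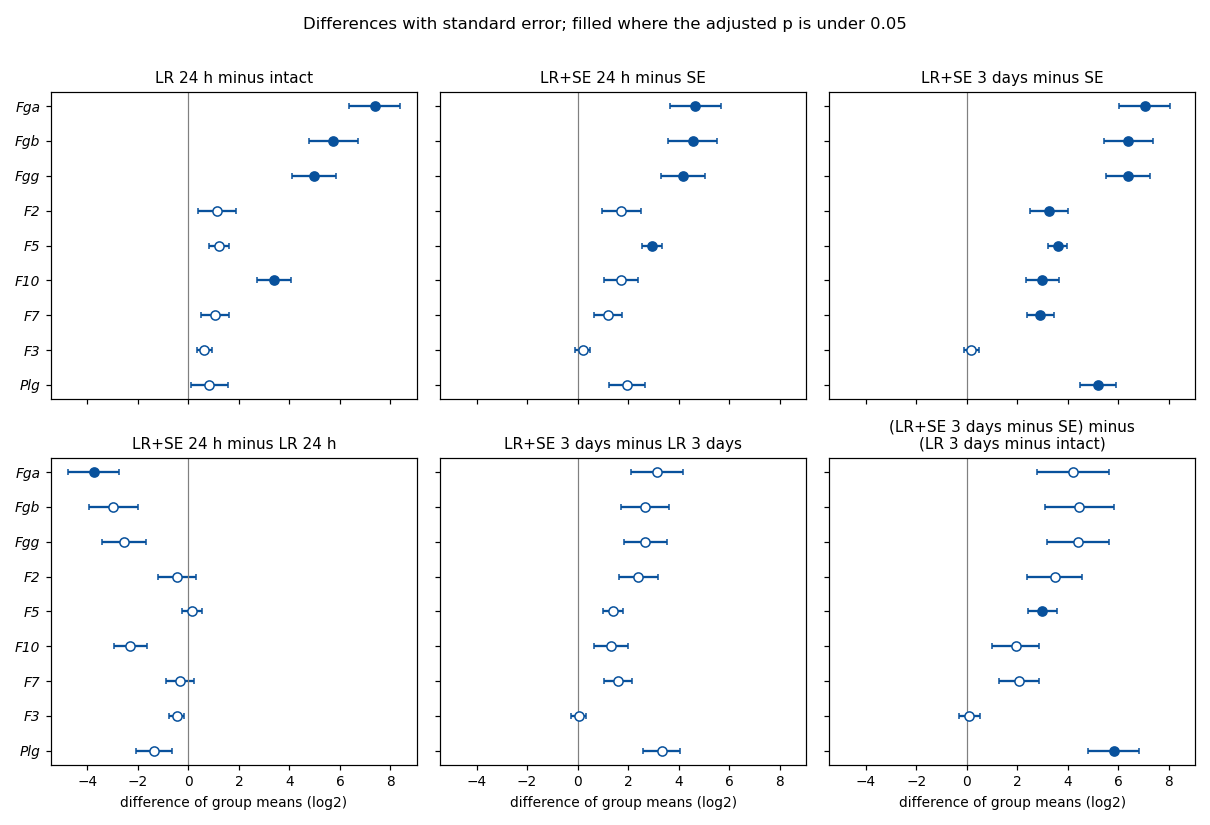
Differences of group means on the log2 scale (horizontal axis) for the 9 genes in 6 comparisons. Bars are standard errors of the limma fit, and filled points have an adjusted p under 0.05. The fibrinogen chains lie between 4.97 and 7.37 at LR 24 h against intact, and Fga is the only filled point left of 0, at -3.76 in LR+SE 24 h against LR 24 h.

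Across the 24 arrays the chains correlated with each other with Pearson's r of 0.983 to 0.989, and their deviations from the group means with 0.936 to 0.96. Arrays of a group share their treatment, and the r is given as a description. With the mean of the hepatocyte list the r was 0.816 for Fga, 0.842 for Fgb and 0.87 for Fgg. Without replicate 2 of LR+SE 3 days these were 0.757, 0.793 and 0.826. The 5 named genes whose pattern was most like the mean of the chains, of 11186 candidates, were Apcs (r = 0.968), Itih3 (0.954), Ambp (0.954), Serpina3n (0.946) and Itih4 (0.944). Apcs encodes serum amyloid P, an acute phase protein in mice, and Itih3 and Itih4 are heavy chains of inter-alpha-trypsin inhibitors. The genes that flank the fibrinogen cluster, chosen after the values of the chains were known, did not pass at LR 24 h against intact: Lrat, a retinol acyltransferase gene, differed by 0.61 ± 0.35 and Plrg1, a splicing factor gene, by 0.89 ± 0.47.

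**Figure D3:**
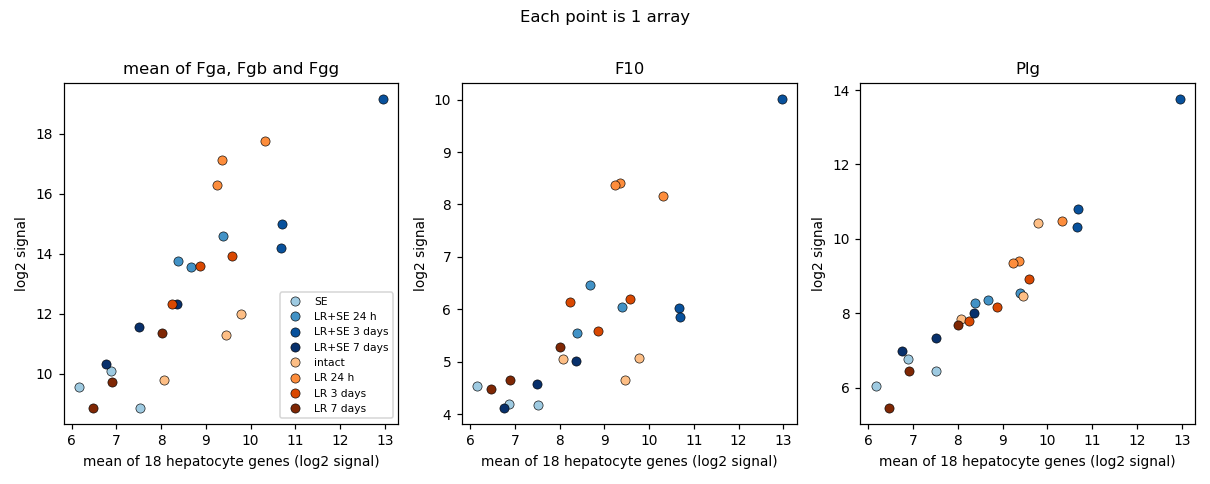
Level of the fibrinogen chains (mean of Fga, Fgb and Fgg), F10 and Plg (vertical axes, log2 signal) against the mean of 18 hepatocyte genes (horizontal axis, log2 signal), 1 point per array. Plg follows the list along a line (r = 0.97 over 24 arrays), whereas for the chains and F10 the LR 24 h arrays lie above the other arrays of like list mean.

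The initiators of clotting were near or below background. F3, tissue factor (chromosome 3, 121723537 to 121735052), had a mean of 3.32 over all arrays, under the background level, with values from 2.62 to 4.37, and its differences are not interpreted. F7, which begins clotting together with tissue factor, had a mean of 4.13. It stood at 5.64, 7.96 and 4.31 on LR+SE 3 days arrays, against 3.31, 3.42 and 2.44 on SE arrays. The groups did not overlap, and the fitted difference was 2.92 ± 0.55 (adjusted p = 0.00238), or 1.92 without replicate 2 (adjusted p = 0.00571). No SE array was above background, so only a bound can be given, and set against the background level F7 was at least 4.86-fold higher, or at least 2.44-fold without replicate 2. F7 was at 4.45, 4.52 and 4.8 in LR 24 h and at 3.85, 3.08 and 3.72 in intact preparations, also without overlap, with a difference of 1.04 ± 0.55 that did not pass. At LR+SE 7 days it was at 3.82, 3.63 and 3.18, below LR+SE 3 days by -2.43 ± 0.55 (adjusted p = 0.0267), or -1.44 without replicate 2 of LR+SE 3 days (adjusted p = 0.131). The call was also lost without any 1 of the LR+SE 7 days arrays. In LR+SE 24 h preparations F7 was at 4.66, 3.88 and 4.25, and at LR 3 days at 4.3, 4.01 and 4.85, and at LR 7 days at 3.67, 4 and 3.42. The genes of most like pattern were Pdpn, podoplanin (r = 0.931), Lcat (0.926), Krt8 (0.919), Acnat1 and Acnat2 (0.917 each). With the hepatocyte list the r of F7 was 0.813, or 0.71 without replicate 2 of LR+SE 3 days.

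F10, the factor that cuts prothrombin, lies within 31.2 kb of F7 on chromosome 8 (13025506 to 13056676 for the pair). F10 was at 8.16, 8.41 and 8.37 on LR 24 h arrays, against 5.07, 5.05 and 4.65 on intact arrays. The arrays of each group lay close together and far from those of the other. The rise was 3.39 ± 0.66 (adjusted p = 0.00238), or 2.32 with the Y-linked block (adjusted p = 0.283). After splenectomy F10 was at 6.46, 5.55 and 6.05 at 24 h, against 4.17, 4.53 and 4.2 in SE, a difference of 1.72 ± 0.66 that did not pass (adjusted p = 0.265). LR+SE 24 h lay below LR 24 h without overlap, by -2.30 ± 0.66 (adjusted p = 0.0614). With the spleen in place F10 declined to 5.58, 6.13 and 6.2 at LR 3 days, with a difference from LR 24 h of -2.34 ± 0.66 (adjusted p = 0.0417), and that call was lost without any 1 of the 6 arrays. At LR 7 days it was at 5.27, 4.65 and 4.48 and overlapped with intact. At LR+SE 3 days F10 was at 6.02, 10.02 and 5.86, higher than SE by 3.00 ± 0.66, or by 1.64 without replicate 2 (adjusted p = 0.00298). F10 was at 4.11, 5.01 and 4.58 at LR+SE 7 days and overlapped with SE. Its difference from LR+SE 3 days passed (-2.73 ± 0.66, adjusted p = 0.04), and was -1.37 without replicate 2 of LR+SE 3 days (adjusted p = 0.0391). The call was lost without any 1 of the LR+SE 7 days arrays. Its r with the hepatocyte list was 0.76 over 24 arrays, and 0.64 without replicate 2 of LR+SE 3 days. The genes of most like pattern were Thbs1, which encodes the matrix protein thrombospondin 1 (r = 0.964), Slc7a2, a transporter of cationic amino acids (0.953), Ackr3, Qsox1 and Lrg1 (0.937, 0.931 and 0.927). Proz and Mcf2l, the genes on either side of the pair, differed by 0.82 ± 0.40 and 0.11 ± 0.39 at LR 24 h against intact, and neither passed.

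F5, the cofactor of factor X (chromosome 1, 164151835 to 164220277), rose after resection in splenectomized mice. It was at 7.32, 6.98 and 7.55 on LR+SE 24 h arrays and at 7.2, 8.98 and 7.62 on LR+SE 3 days arrays, against 4.32, 4.54 and 4.15 on SE arrays. All these resected arrays lay far above the SE arrays. Platelet and megakaryocyte markers averaged 6.18 to 6.59 in LR+SE 24 h, 5.48 to 6.48 in LR+SE 3 days and 5.16 to 5.58 in SE preparations. The hepatocyte list was at 8.38 to 9.39, 10.67 to 12.96 and 6.16 to 7.52 in the same groups. The part of either list in the rise of F5 was not tested. F5 rose by 2.95 ± 0.39 at 24 h (adjusted p = 3.59e-04), a call kept without any 1 array, and was higher by 3.60 ± 0.39 at 3 days (adjusted p = 2.13e-05), or 3.07 without replicate 2. At LR+SE 7 days it was back at 5.3, 5.36 and 4.32, and fell by 2.94 ± 0.39 against 3 days (adjusted p = 7.56e-04). With the spleen in place F5 was at 7.06, 6.68 and 7.71 at 24 h, 6.73, 6.54 and 6.3 at 3 days and 5.05, 5.57 and 4.99 at 7 days, against 6.57, 5.36 and 5.86 in intact preparations. These differences, 1.22 ± 0.39, 0.59 ± 0.39 and -0.73 ± 0.39, did not pass, and that at LR 24 h passed without replicate 1 of intact (1.54, adjusted p = 0.0322). The response after splenectomy exceeded that with the spleen by 3.00 ± 0.56 at 3 days (adjusted p = 0.0152), where 2 of the 9 genes passed, both higher (0.513% of clusters, 0.468% upwards), and 8 had an unadjusted p under 0.05. The level of the baselines enters this value, since SE lay below intact without overlap, by -1.59 ± 0.39 (adjusted p = 0.0697), while LR+SE 3 days exceeded LR 3 days by 1.41 ± 0.39 (adjusted p = 0.187), or by 0.88 without replicate 2 of LR+SE 3 days. With the Y-linked block the difference of responses was 3.37 (adjusted p = 0.114), and without replicate 2 of LR 3 days 3.01 (adjusted p = 0.0503). At 24 h LR+SE and LR arrays overlapped, with a difference of 0.13 ± 0.39 in F5. The responses at 7 days differed past the threshold in none of the 9 genes (0.122% of clusters, and 4 genes at an unadjusted p under 0.05). The genes of most like pattern were Fn1, fibronectin (r = 0.887), Cps1 of the hepatocyte list (0.875), Clu (0.874), Agpat2 (0.864) and Vtn (0.863). With the hepatocyte list the r of F5 was 0.844, or 0.795 without replicate 2 of LR+SE 3 days.

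F2, the prothrombin gene (chromosome 2, 91612397 to 91636457), passed in 1 comparison. It was at 9.2, 13.13 and 9.79 on LR+SE 3 days arrays, against 7.98, 6.96 and 7.35 on SE arrays, and was higher by 3.27 ± 0.76 (adjusted p = 0.0107). Replicate 2 carried part of this, and without it the difference was 2.06 (adjusted p = 0.0652). At 24 h F2 was at 9.11, 8.87 and 9.53 in LR+SE and 10.23, 9.8 and 8.86 in LR preparations, overlapping with each other, and LR 24 h overlapped with intact at 9.56, 7.61 and 8.3. At LR+SE 7 days it was at 7.51, 8.16 and 8.02, at LR 3 days at 7.95, 7.38 and 9.54 and at LR 7 days at 7.89, 6.05 and 6.98, and none of these passed against SE or intact. All neighbours in the order of the 8 group means, from 10.7 at LR+SE 3 days to 6.97 at LR 7 days, overlapped. Its difference from intact at LR 24 h, 1.14 ± 0.76, was -0.69 with the Y-linked block. F2 correlated with the hepatocyte list with r = 0.913, or 0.869 without replicate 2 of LR+SE 3 days. The genes of most like pattern, Ahsg, Mat1a, Serpinf2, Apob and Vtn (r = 0.928 to 0.934), are genes of hepatocyte products.

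Plg, the plasminogen gene (chromosome 17, 12378609 to 12419384), showed the largest difference between the spleen states at 3 days among the 9 genes. It was at 10.31, 13.77 and 10.79 on LR+SE 3 days arrays, against 8.16, 7.8 and 8.92 on LR 3 days arrays. The groups did not overlap, and the difference of 3.33 ± 0.72 did not pass (adjusted p = 0.0712, and 2.25 with adjusted p = 0.467 without replicate 2). Against SE, at 6.44, 6.06 and 6.78, Plg was higher at LR+SE 3 days by 5.19 ± 0.72 (adjusted p = 1.75e-04), or by 4.12 without replicate 2. The response to resection at 3 days was larger after splenectomy than with the spleen by 5.82 ± 1.02 (adjusted p = 0.0103), and by 4.75 without replicate 2 of LR+SE 3 days (adjusted p = 0.0118). SE lay below intact without overlap, by -2.49 ± 0.72 (adjusted p = 0.123), as did the hepatocyte list (6.16 to 7.52 in SE and 8.07 to 9.78 in intact preparations). With the Y-linked block the difference of responses was 7.21 (adjusted p = 0.0738). Plg was also higher at LR+SE 3 days than at LR+SE 24 h, at 8.35, 8.28 and 8.54, by 3.23 ± 0.72 (adjusted p = 0.0269), the only 1 of 9 genes to pass there (1.31% of clusters, 0.797% upwards). That call was lost without replicate 2 of LR+SE 3 days (2.16, adjusted p = 0.132) and without replicate 1 or 2 of LR+SE 24 h. At LR+SE 7 days it was at 7, 8.02 and 7.33, and fell by 4.17 ± 0.72 against 3 days (adjusted p = 0.00337). With the spleen in place Plg did not pass against intact, at 10.48, 9.41 and 9.36 in LR 24 h, 7.7, 6.45 and 5.45 in LR 7 days and 10.43, 7.86 and 8.47 in intact preparations. Plg had an r of 0.97 with the hepatocyte list, against 0.508 to 0.913 in the other 8 genes. For Plg it was 0.956 without replicate 2 of LR+SE 3 days. In the same difference of responses 8 of 18 hepatocyte genes were higher. The genes of most like pattern were Apof (r = 0.974), Ahsg, Serpinf2, Rbp4 and Serpinc1, which encode plasma proteins of the liver. Whether hepatocyte transcripts account for the differences in Plg was not tested.

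Some inhibitors and activators of the same system passed at LR 24 h against intact, where 7.59% of all clusters did. Of 11 anticoagulant genes 3 rose and none fell (median -0.07, against 0.01 over all clusters). Thbd, thrombomodulin, which turns thrombin to activating protein C, ranged from 13.14 to 14.83 in LR 24 h and from 5.66 to 7.71 in intact preparations, a rise of 6.76 ± 0.92 (adjusted p = 1.09e-04). Procr, the endothelial protein C receptor, rose by 4.70 ± 1.04 and Serpina10, an inhibitor of factor X, by 3.67 ± 0.76. Sinusoidal endothelial markers averaged 13.46 to 13.86 in LR 24 h and 11.64 to 13.31 in intact preparations, without overlap and with 2 of 11 higher, and their part was not tested. Of 9 measured fibrinolysis genes 2 rose and 1 fell (median 0.37). Serpinb2, an inhibitor of plasminogen activators made by macrophages, ranged from 12.28 to 15.2 in LR 24 h and from 4.06 to 5.94 in intact preparations and rose by 8.77 ± 0.82 (adjusted p = 3.68e-06). Plau, the urokinase that activates plasminogen, fell to 6.21 to 6.94 in LR 24 h preparations, against 10.39 to 11.74 in intact ones (-4.81 ± 0.49, adjusted p = 7.88e-06). Anxa2, a plasminogen receptor subunit, rose by 2.69 ± 0.56. Of 3 thrombin and protease receptor genes 1 passed, the thrombin receptor F2r (4.07 ± 0.64, median of the list 0.00).

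Of 9 fibrinogen receptor and fibrinogen-like genes 4 rose and 2 fell at LR 24 h against intact (median 1.12), with Itgam, the CD11b integrin that binds fibrin and is also a monocyte marker, at 8.61 ± 1.15, Itgb3 at 4.61 ± 0.81 and Fgl1, a fibrinogen-like hepatokine, at 4.38 ± 0.95. The genes that fell were Fgl2, a membrane protein that can cut prothrombin (-3.23 ± 0.63), and Tlr4, the endotoxin receptor. Of 18 interleukin 6 and acute phase genes 13 rose (median 3.94), led by Saa2 (12.19 ± 1.54), Saa1 (10.60 ± 1.27) and Orm1 (9.18 ± 0.98). None of 11 other coagulation factor genes passed in limma (6 at an unadjusted p under 0.05, median 0.61). Beside these, 4 of 9 monocyte markers and 7 of 11 neutrophil markers were higher. The mean of the monocyte markers was 10.02 to 10.66 in LR 24 h and 6.33 to 6.62 in intact preparations, and that of the neutrophil markers 10.13 to 11.28 and 5.13 to 6.4 in the same groups. Their part in these differences was not tested. With the Y-linked block the calls of Serpina10, Anxa2, F2r, Itgb3 and Fgl1 were lost, and those of Thbd, Procr, Serpinb2, Plau, Itgam, Saa2, Saa1 and Orm1 were kept.

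**Figure D4:**
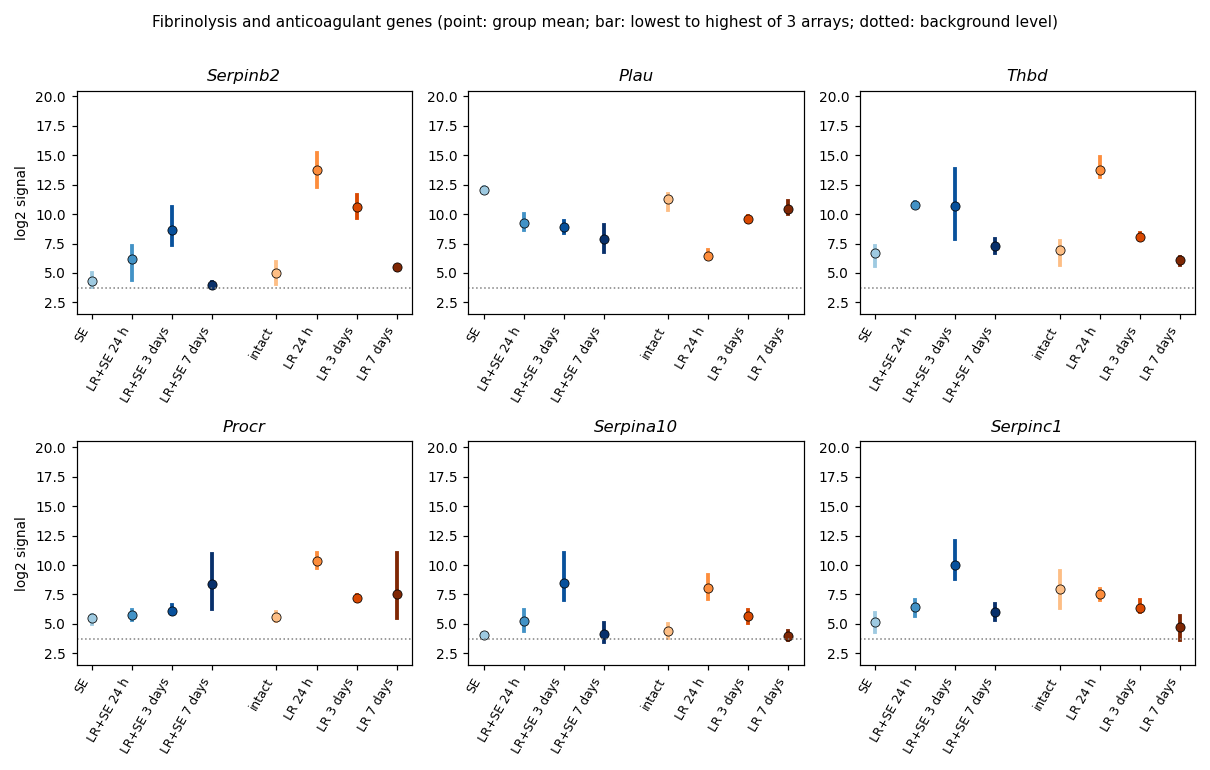
Log2 signal of 6 fibrinolysis and anticoagulant genes by group, LR+SE and SE left, LR and intact right. Points are group means, bars run from the lowest to the highest of 3 arrays and the dotted line is the background level of 3.69. Serpinb2 and Procr lie lower at LR+SE 24 h than at LR 24 h, and Plau is lowest at LR 24 h.

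Between LR+SE 24 h and LR 24 h, Serpinb2 fell by 7.60 ± 0.82 (adjusted p = 2.86e-05), at 4.38 to 7.25 in LR+SE 24 h and 12.28 to 15.2 in LR 24 h preparations. Its response to resection differed by -6.88 ± 1.16 (adjusted p = 0.0102), and this was lost with the Y-linked block. Plau was higher by 2.75 ± 0.49 (adjusted p = 0.0023), at 8.66 to 10.05 in LR+SE 24 h and 6.21 to 6.94 in LR 24 h preparations. Both calls between the 24 h groups were kept under all 13 alternatives tried. Of 11 anticoagulant genes 2 were lower (median -0.58, against -0.03 over all clusters), Procr (-4.60 ± 1.04) and Serpina10 (-2.78 ± 0.76), and both calls were lost without replicate 2 of either group. Sinusoidal endothelial markers averaged 12.09 to 12.5 in LR+SE 24 h and 13.46 to 13.86 in LR 24 h preparations, without overlap and with 3 of 11 lower (median -1.06), and their part was not tested. Of 18 acute phase genes 2 were lower (median -2.39), Itih4 (-4.09 ± 0.90) and Hpx (-3.20 ± 0.88). These calls too were lost without replicate 2 of either group, among other arrays. Neutrophil markers averaged 12.36 to 12.71 in LR+SE 24 h and 10.13 to 11.28 in LR 24 h preparations.

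At LR+SE 24 h against SE fewer of these genes passed. Plau fell by 2.86 ± 0.49 (adjusted p = 0.00352), at 8.66 to 10.05 in LR+SE 24 h and 11.81 to 12.31 in SE preparations. Thbd was at 10.6 to 11 in LR+SE 24 h and 5.59 to 7.28 in SE preparations, the only one of 11 anticoagulants to pass (4.10 ± 0.92, adjusted p = 0.0259), and its call was lost without any 1 of 5 of the 6 arrays. Of 18 acute phase genes 4 rose (median 2.54, against -0.02 over all clusters), with Serpina3n, a protease inhibitor, at 5.58 ± 1.18, Hp, haptoglobin, at 4.53 ± 0.77 and Hpx, hemopexin, at 4.36 ± 0.88. Of these Hp was kept without any 1 array. None of the 11 other coagulation factors passed in limma (1 at an unadjusted p under 0.05, median 0.47). Here 10 of 11 neutrophil markers were higher, at 12.36 to 12.71 in LR+SE 24 h and 5.57 to 8.43 in SE preparations. Monocyte markers averaged 10.15 to 10.95 and 6.55 to 7.41 in the same groups. The part of both lists was not tested. At LR 3 days against intact Serpinb2 was still higher by 5.57 ± 0.82 (adjusted p = 9.88e-04), as were 3 of 18 acute phase genes, Orm1, Hp and Hpx. With the Y-linked block the calls of these 3 were lost and that of Serpinb2 was kept. The call of Hpx was also lost without any 1 of the LR 3 days arrays or replicate 2 or 3 of intact. In this comparison none of the 11 anticoagulants or 11 other coagulation factors passed in limma (1 and 3 at an unadjusted p under 0.05). Between SE and intact none of the genes in the pathway lists passed in limma, with 0 to 5 of a list at an unadjusted p under 0.05 and list medians of -0.71 to 0.17.

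At LR+SE 3 days against SE, other genes of plasma coagulation were higher too. Of 11 other coagulation factors 6 rose (median 1.18, against -0.04 over all clusters), with Kng1 and Kng2, the kininogens, at 5.79 ± 0.81 and 4.31 ± 0.62. F13a1, the factor XIII subunit that crosslinks fibrin and also a monocyte marker, was higher by 3.79 ± 1.09 (adjusted p = 0.04), or by 1.81 without replicate 2 of LR+SE 3 days (adjusted p = 0.208), and its call was lost without any 1 of 5 of the 6 arrays. Of 11 anticoagulants 6 rose (median 1.74), led by Serpinc1, antithrombin (4.84 ± 0.78), Serpind1, heparin cofactor II (4.41 ± 0.62), and Serpina10, the inhibitor of factor X. Of 9 fibrinolysis genes 5 rose and 1 fell (median 2.60), with Hrg, histidine-rich glycoprotein, at 4.46 ± 0.70, Serpinb2 at 4.37 ± 0.82 and Serpinf2, the inhibitor of plasmin, at 3.52 ± 0.71. The calls of these named genes other than F13a1 were kept without any 1 array. Those of Serpina10 and Serpinf2 were lost with only the arrays compared in the fit. Beside these genes 15 of 18 hepatocyte genes rose. Monocyte markers averaged 8.94 to 13.15 in LR+SE 3 days and 6.55 to 7.41 in SE preparations. Neutrophil markers averaged 6.64 to 11.56 and 5.57 to 8.43 in the same groups. The part of these lists was not tested. The response to resection at 3 days was larger after splenectomy for Serpinc1 (6.40 ± 1.10, adjusted p = 0.00853) and Serpind1 (4.74 ± 0.88). Both calls were lost with the Y-linked block and with only the arrays compared in the fit, and that of Serpind1 also without replicate 3 of SE or replicate 2 of LR 3 days. At LR+SE 7 days against LR 7 days F8, factor VIII, which sinusoidal endothelial cells make, was higher by 3.63 ± 0.69 (adjusted p = 0.00978), at 14.35 to 15.02 in LR+SE 7 days and 9.52 to 12.57 in LR 7 days preparations, and Plau differed by -2.59 ± 0.49. Sinusoidal endothelial markers were at 13.11 to 14.21 in LR+SE 7 days and 10.43 to 10.84 in LR 7 days preparations, with 8 of 11 higher. The call of F8 was lost without replicate 1 of LR 7 days or replicate 2 of LR+SE 7 days, that of Plau without replicate 1 of LR 7 days or replicate 3 of LR+SE 7 days, and both with only the arrays compared in the fit.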

How the data were processed

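Total RNA of sorted F4/80+ cells was hybridised to Clariom S arrays. The deposited values are log2 signals. The authors computed them in the Transcriptome Analysis Console, with RMA normalization; the version and the kind of RMA are not given in the sources used here. Fold changes are on this log2 scale, and compression near 19.93 can understate high levels. Of 28846 entries 6640 controls were left out. Of 22206 clusters 19572 had exactly 1 symbol, matched through the platform annotation and, by gene ID, RefSeq GRCm38.p6. The 2634 others were not named. No table columns were left unused.

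Linear models with 1 mean per group were fitted to all 24 arrays with limma 3.58.1 in R 4.3.3 (16 residual and 4.23 prior degrees of freedom), with Benjamini-Hochberg adjustment within each of 17 comparisons. An exact test of 3 against 3 arrays cannot go below p = 0.1, so the tests rest on the pooled spread, and the number of arrays limits the precision. The fit was tested on simulated data. No array was identical to another. The members and gene lists were chosen with earlier results of these data known. All members are given. Each pathway list names at most the 3 called genes of largest difference per comparison, and likeness is Pearson's r among named clusters above background, 5 genes a pattern. Alternatives were the variance prior, a background filter, quantile normalization, only the arrays compared, replicate and Y-linked blocks, array weights and leaving out each array. Upstream windows came from the RefSeq promoter table. Python 3.11.15 with matplotlib 3.10.9 was used for the tables and plots.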

Additional observations from a re-analysis of the deposited data

Results flagged for a closer look

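The response to resection at 3 days differed between splenectomized mice and mice with the spleen in F5 (3.00 ± 0.56, adjusted p = 0.0152) and Plg (5.82 ± 1.02, adjusted p = 0.0103), by the interaction term over all clusters. For F5 the resected groups differed by 1.41 (0.88 without replicate 2 of LR+SE 3 days) and the baselines, SE minus intact, by -1.59. For Plg these differences were 3.33 (2.25 without that array) and -2.49. The hepatocyte list was lower in SE, at 6.16 to 7.52, than in intact preparations, at 8.07 to 9.78, with 5 of 18 genes passing, and 8 of its 18 genes were higher in the same difference of responses. Its part in both results was not tested. Y-linked signal is present on the SE arrays and absent on the intact arrays, so at the baselines splenectomy and this signal cannot be told apart, and with the signal as a block the responses differed by 3.37 in F5 (adjusted p = 0.114) and 7.21 in Plg (adjusted p = 0.0738).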

How the results depend on the processing

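The number of the 9 genes that passed changed under several settings. With the Y-linked block none passed at LR 24 h against intact or for the difference of responses at 3 days, 2 passed at LR+SE 24 h against LR 24 h, 1 at LR+SE 3 days against LR 3 days and 0 at LR 7 days against LR 3 days. Among the signs that changed with this block, that of F2 turned at LR 24 h against intact, with the value given above. The sign of F3 was lost at LR 24 h against intact (0.00), and that of F10 turned at LR 3 days against intact (-0.03). With only the arrays compared, which leaves fewer degrees of freedom, 2 passed at LR 3 days against intact, 7 at LR+SE 24 h and 5 at LR+SE 3 days against SE, 4 at LR+SE 24 h against LR 24 h and 1 for the difference of responses at 24 h. It left 0 for LR 7 days against LR 3 days, LR+SE 3 days against LR+SE 24 h, LR+SE 7 days against LR+SE 3 days and the difference of responses at 3 days. A variance prior with trend gave 2, 1 and 0, leaving out clusters at or below background 2, 1 and 2, and array weights 2, 1 and 2 for LR+SE 24 h against LR 24 h, LR+SE 3 days against LR 3 days and LR 7 days against LR 3 days, and array weights 1 for LR 3 days against intact. Quantile normalization moved no count by over 1.5 times. Beyond the construction named, the cause was not tested.

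Leaving out 1 array at a time gave 1 to 4 genes at LR+SE 24 h against SE, 0 at LR+SE 24 h against LR 24 h, 0 to 2 at LR+SE 3 days against LR 3 days, 0 to 2 at LR 3 days against LR 24 h, 0 at LR 7 days against LR 3 days, 0 to 2 at LR+SE 3 days against LR+SE 24 h, 2 to 8 at LR+SE 7 days against LR+SE 3 days and 1 to 3 for the difference of responses at 3 days. Deviations of same-numbered arrays of different groups had a median r of -0.007 over 84 pairs, of which 28 were over 0.1. For different numbers the median was -0.019 over 168 pairs, of which 48 were over 0.1. No pairing common to all groups was seen, and a median cannot show whether some groups were paired. With the replicate number as a block 0 passed at LR+SE 24 h against LR 24 h and 0 at LR 7 days against LR 3 days, and 3 at LR 3 days against LR 24 h. Of all values of the 9 genes under the alternatives 51 changed sign, and none of these passed in either fit. Each gene has 1 cluster, and no other cluster was there to try. Alternatives for the pathway genes were added after seeing the data. Signals near background limit F3 and F7, and signals near 19.93 the fibrinogen chains on array 2 of LR+SE 3 days.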
